A study of Mus musculus with 17 samples.

Results

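The interferon regulatory factors are a family of transcription factors, and 8 of them (Irf1, Irf2, Irf3, Irf4, Irf5, Irf7, Irf8 and Irf9) were followed here in the blood of irradiated mice, among 12696 genes tested. For each gene the array probe sets annotated to that symbol alone were taken, and of these the brightest on average across the 17 arrays stood for the gene. All 8 genes passed the filter on dim signals, which kept a gene if 4 or more arrays put it above their 50th percentile. The animals were female C57BL/6JJcl mice, an inbred strain, aged 8 weeks. Each received a single total-body dose of X-rays, and 24 h later whole blood was drawn into an RNA-stabilising tube. There were 5 mice at 0 Gy (control), 4 at 0.5 Gy, 4 at 1.0 Gy and 4 at 3.0 Gy, with 1 array per mouse, and the labels call them biological replicates. Values are log2 levels after RMA (robust multi-array average), so 1 unit is a 2-fold difference, and levels of different probe sets cannot be set against each other.

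Interferon regulatory factors share a DNA-binding domain that recognises GAAA repeats, and they work at several points of the interferon system. Irf3, Irf5 and Irf7 wait in the cytoplasm until kinases downstream of Toll-like receptors or of RNA and DNA sensors phosphorylate them, after which they drive interferon and cytokine genes. Secreted interferon then acts through JAK kinases, and type I interferon brings Irf9 into the complex ISGF3, which binds the interferon-stimulated response element (ISRE). Interferon gamma acts through the gamma-activated site (GAS) and induces Irf1, whose sites Irf2 can also occupy, mostly as a repressor. Irf4 and Irf8 are restricted largely to blood cells, bind DNA together with the ETS factors PU.1 and Spi-B, and are known for their part in the development of B cells, plasma cells, monocytes and dendritic cells.

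Promoter windows from RefSeq (GRCm38.p6) were found for all 8 genes, 11 windows in all. Each window runs from 250 bases before a transcript start to 50 bases after it, and both strands were searched for the ISRE core (GAAA, any 2 bases, GAAA) and for the GAS core TTCNNNGAA, which reads the same on both strands. The 3 genes with a match are printed below, because ISRE and GAS are the elements by which interferon reaches these genes, together with Irf7, the member whose level was lower at 0.5 and 1.0 Gy. Only the 250 bases upstream of the start are shown, 5′ to 3′ on the strand of the gene, with motif matches in capitals. They lie at chr11:53769764-53770013 on the plus strand for Irf1, chr8:46739495-46739744 on the plus strand for Irf2, chr8:120736108-120736357 on the plus strand for Irf8 and chr7:141266425-141266674 on the minus strand for Irf7.
Irf1: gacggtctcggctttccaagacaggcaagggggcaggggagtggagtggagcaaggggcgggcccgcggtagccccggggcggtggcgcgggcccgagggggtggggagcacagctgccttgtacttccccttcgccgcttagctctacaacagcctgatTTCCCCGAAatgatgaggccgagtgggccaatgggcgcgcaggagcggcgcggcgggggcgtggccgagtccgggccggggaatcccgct
Irf2: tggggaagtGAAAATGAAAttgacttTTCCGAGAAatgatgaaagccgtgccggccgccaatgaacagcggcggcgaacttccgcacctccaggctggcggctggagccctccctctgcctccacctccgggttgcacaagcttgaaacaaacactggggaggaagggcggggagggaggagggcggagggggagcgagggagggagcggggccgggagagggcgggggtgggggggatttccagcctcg
Irf8: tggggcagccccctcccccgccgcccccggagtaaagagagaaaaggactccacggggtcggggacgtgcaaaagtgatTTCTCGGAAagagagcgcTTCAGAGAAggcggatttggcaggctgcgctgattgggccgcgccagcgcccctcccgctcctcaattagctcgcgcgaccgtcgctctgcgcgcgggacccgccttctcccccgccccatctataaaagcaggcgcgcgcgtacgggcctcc
Irf7: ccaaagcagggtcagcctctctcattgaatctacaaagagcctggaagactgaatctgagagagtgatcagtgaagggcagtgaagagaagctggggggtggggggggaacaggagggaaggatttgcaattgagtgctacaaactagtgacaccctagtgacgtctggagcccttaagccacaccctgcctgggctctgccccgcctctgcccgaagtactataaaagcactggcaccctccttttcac

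Irf1 held 1 GAS core, TTCCCCGAA, that began 90 bases before the start. Irf2 held an ISRE core, GAAAATGAAA, and a GAS core, TTCCGAGAA, and Irf8 held 2 GAS cores, TTCTCGGAA and TTCAGAGAA. Thus 1 of the 8 genes had the ISRE core, where 3.99% of 27025 mouse genes had it in a window of this kind, and 3 of the 8 had the GAS core, where 9.55% of genes had it. These are matches of letters in a short window and not sites at which binding was measured.

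Array medians lay between 3.47 and 3.57. Control probe sets for 18S ribosomal RNA separated the groups in an order unlike the dose, with means of 10.52 ± 0.49 for controls, 12.69 ± 0.77 after 0.5 Gy, 13.28 ± 0.28 after 1.0 Gy and 10.68 ± 0.14 after 3.0 Gy (SD, n = 5 for control and n = 4 per dose). Comparisons that involve 0.5 or 1.0 Gy therefore coincide with a shift in this RNA, and with the 18S level as a term in the model no member was called in any of them, at a member standard error whose median was 0.354 at 0.5 Gy and 0.431 at 1.0 Gy, against 0.167 without the term. Its part in the results at those doses was not tested. Of the blood cell markers, 15 of 19 red cell, 17 of 19 platelet, 14 of 17 neutrophil, 17 of 19 B cell and 16 of 19 T cell markers passed the filter, as did 69.8% of all genes with a probe set.

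The family answered the doses unevenly. At 3.0 Gy against control 4 members were lower (Irf8, Irf4, Irf3 and Irf2) and 1 was higher (Irf5), while Irf1, Irf7 and Irf9 did not pass the test. At 0.5 Gy and at 1.0 Gy against control the only member called was Irf7, lower at both doses. A call means a limma adjusted p under 0.05, adjusted by Benjamini-Hochberg over all 12696 genes. The background was wide, since 49.1% of all genes were called at 3.0 Gy, 29.2% lower and 20.0% higher, beside 5 of 8 members, a share near that of all genes. At 0.5 Gy 10.2% of all genes were called, 635 of the 12696 lower, and at 1.0 Gy 17.3% were called and 8.49% were called lower, beside 1 of 8 members at each dose. The median log2 change of the 8 members was -0.09 at 0.5 Gy, -0.08 at 1.0 Gy and -0.51 at 3.0 Gy, and that of all tested genes was -0.02, -0.04 and 0.04. All 3 comparisons share the same 5 control arrays.

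**Figure D1:**
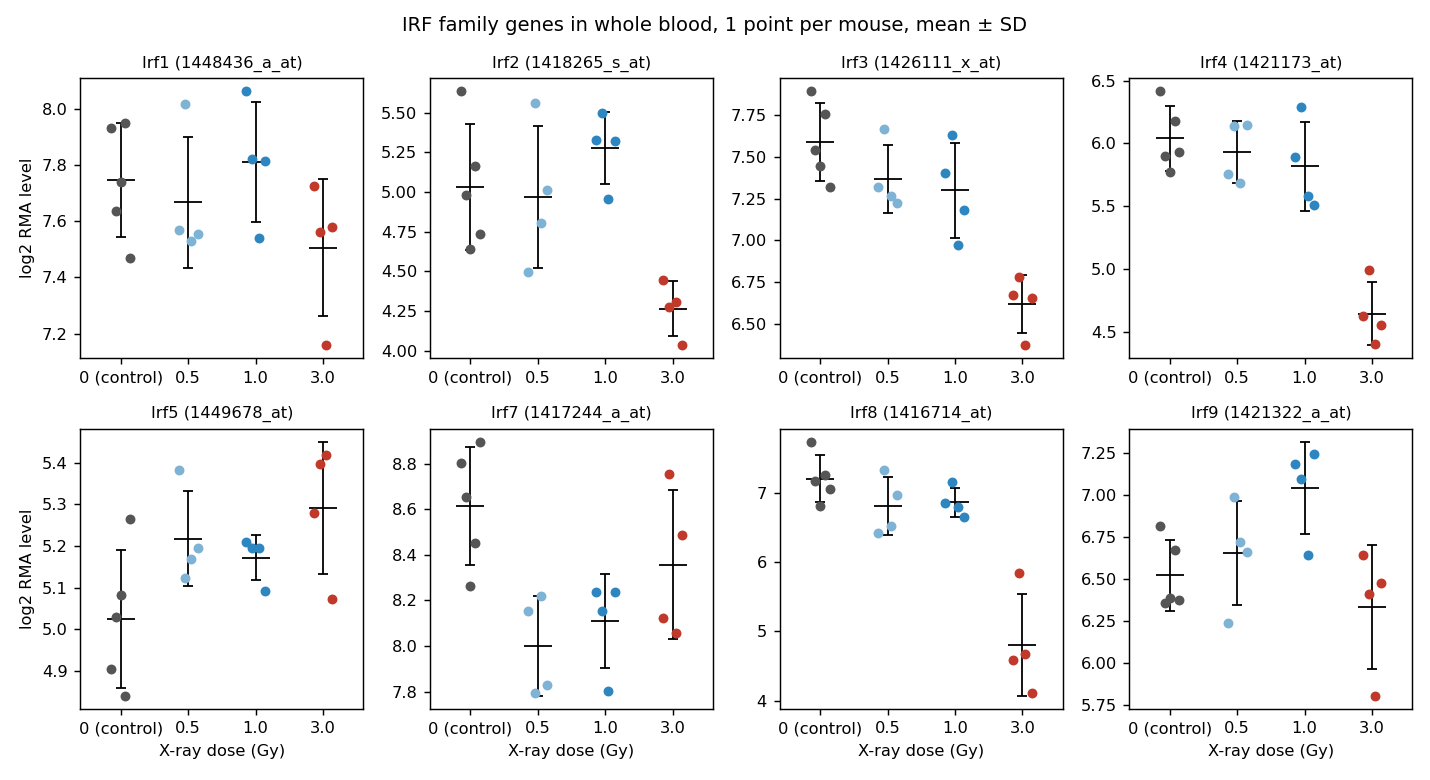
Log2 RMA level of each interferon regulatory factor gene (vertical axis, own scale per gene) against X-ray dose in Gy, 1 point per mouse with group mean and SD (n = 5 for control, n = 4 per dose). The 3.0 Gy points of Irf2, Irf3, Irf4 and Irf8 lie below every control point, and the 0.5 and 1.0 Gy points of Irf7 lie below every control point.

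Irf8, which directs monocyte and dendritic cell development and is also active in B cells, had the largest change among the chosen probe sets. Its levels were 7.74, 7.17, 6.81, 7.26 and 7.05 in controls, 6.42, 7.33, 6.52 and 6.98 at 0.5 Gy, 6.85, 7.15, 6.80 and 6.65 at 1.0 Gy, and 4.59, 5.85, 4.67 and 4.11 at 3.0 Gy. The 3.0 Gy mice lay far below all other mice, the groups at lower doses overlapped the controls, and 1 mouse at 3.0 Gy (replicate 2) stood above its 3 companions. At 3.0 Gy Irf8 averaged 4.81 ± 0.74, against 7.21 ± 0.34 in controls (SD, n = 4 and 5), a log2 change of -2.40 ± 0.27 (SE), or 5.28-fold lower (adjusted p = 7.61e-07). The changes at 0.5 Gy (-0.40 ± 0.27, adjusted p = 0.436) and at 1.0 Gy (-0.34 ± 0.27, adjusted p = 0.439) were not called.

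Irf4, which is needed for plasma cell formation and for the expansion of activated lymphocytes, was also lowest at 3.0 Gy. Controls read 6.42, 5.90, 5.77, 6.18 and 5.93, the 0.5 Gy mice 5.76, 6.14, 5.68 and 6.14, the 1.0 Gy mice 5.89, 6.29, 5.58 and 5.51, and the 3.0 Gy mice 4.62, 4.99, 4.40 and 4.56. Every 3.0 Gy mouse lay below every other mouse, as it did for Irf2, Irf3 and Irf8 and, against control alone, for 22.9% of all tested genes, and the highest of them was again replicate 2. Irf4 was 2.63-fold lower at 3.0 Gy than in controls (log2 change -1.40 ± 0.17, adjusted p = 2.32e-06), whereas the changes of -0.11 at 0.5 Gy (adjusted p = 0.797) and -0.22 at 1.0 Gy (adjusted p = 0.435) did not pass. In bulk blood, fewer cells of a type and less RNA per cell cannot be told apart.

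B and T cell markers moved with these falls. At 3.0 Gy 16 of 17 tested B cell markers were lower, with a list median of -2.90 against 0.04 for all genes, and 13 of 16 T cell markers were lower, with a median of -1.52. The mean level of the B cell list ranged from 7.49 to 8.18 in controls, from 7.004 to 7.83 at 0.5 Gy, from 7.16 to 7.83 at 1.0 Gy and from 4.77 to 6.14 at 3.0 Gy, and its highest 3.0 Gy value belonged to replicate 2, the mouse with the highest Irf8 and Irf4 of that dose. That mouse was also highest of its dose in the monocyte, interferon-induced and both dendritic cell lists, and in Irf3 and Irf7. The match is therefore not particular to B cells. The T cell list ranged from 6.52 to 7.22 in controls, 6.44 to 6.86 at 0.5 Gy, 6.15 to 6.89 at 1.0 Gy and 5.51 to 5.67 at 3.0 Gy. Replicate 2 of 3.0 Gy read 5.59 there, below the 5.67 of replicate 1. Of 12 markers of plasmacytoid dendritic cells, the main source of interferon alpha, 3 were lower (Ly6d, Spib and Ccr9, the first 2 of which B cells also express) and Bst2 was higher. Bst2 is also in the list of interferon-induced genes. Of 9 markers of conventional dendritic cells 3 were lower (Ccr7, Dpp4 and Wdfy4), and T cells also express Ccr7. Both dendritic cell shares lie near the 29.2% of all genes called lower, and the list medians were -0.09 for plasmacytoid and -0.05 for conventional cells. The mean level of each of these lists was nonetheless lower in every 3.0 Gy mouse than in every other mouse. A list mean follows its largest changes. At 3.0 Gy these were Ccr7 (-2.47), Dpp4 (-0.84) and Wdfy4 (-0.83) in the conventional list and Spib (-3.28) and Ly6d (-3.01) in the plasmacytoid list. The separation is therefore no sign of a fall across either list. The conventional list level was 5.67 to 5.84 in controls, 5.64 to 5.82 at 0.5 Gy, 5.47 to 5.86 at 1.0 Gy and 5.27 to 5.39 at 3.0 Gy. No list holds an Irf gene, RMA values have no zero, and the part of cell numbers in the fall of any member was not tested.

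**Figure D2:**
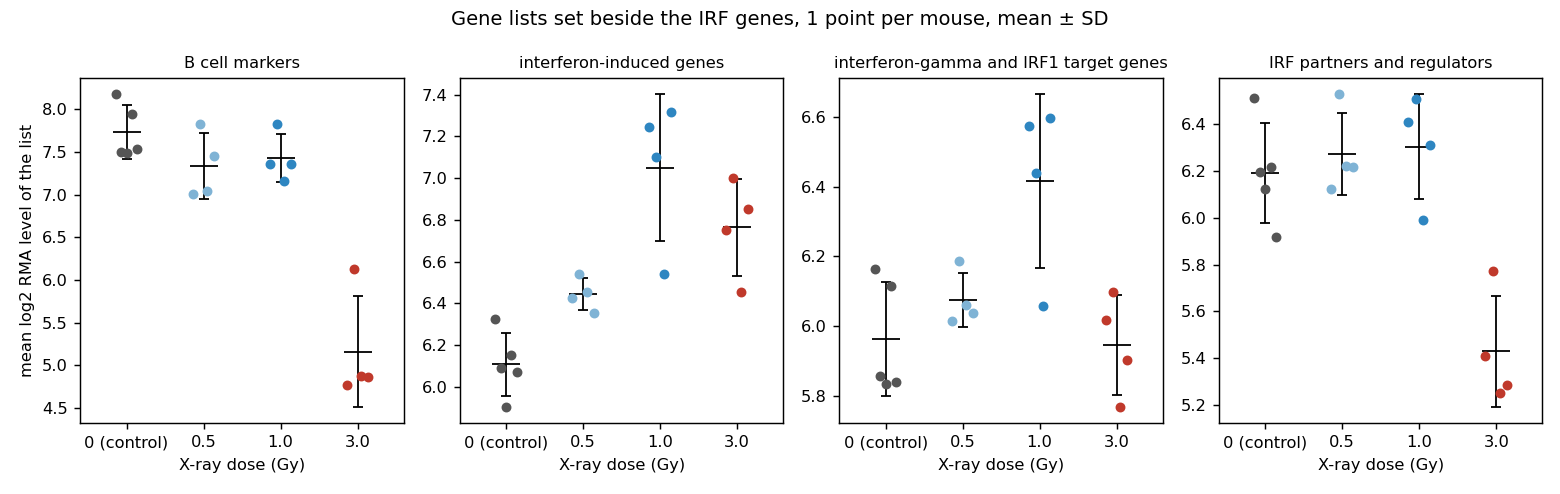
Mean log2 RMA level of the tested genes of 4 lists (vertical axes, own scale per panel) against X-ray dose in Gy, 1 point per mouse with group mean and SD. B cell markers and the partners and regulators are lowest at 3.0 Gy, while the interferon-induced genes have their highest mean at 1.0 Gy.

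Among the factors that sensors activate, Irf3, the constitutively made factor that switches on the interferon beta gene, was lower at 3.0 Gy. It read 7.89, 7.54, 7.44, 7.76 and 7.32 in controls, 7.32, 7.67, 7.27 and 7.22 at 0.5 Gy, 7.41, 7.63, 6.97 and 7.18 at 1.0 Gy, and 6.67, 6.78, 6.37 and 6.65 at 3.0 Gy. The 3.0 Gy mice lay below all 13 others, and replicates 1, 3 and 4 at 0.5 Gy and replicates 3 and 4 at 1.0 Gy also lay below the lowest control, at 0.5 Gy replicate 1 by less than the rounding shown. Irf3 was 1.96-fold lower at 3.0 Gy (log2 change -0.97 ± 0.15, adjusted p = 2.23e-05), with uncalled changes of -0.22 ± 0.15 at 0.5 Gy (adjusted p = 0.421) and -0.29 ± 0.15 at 1.0 Gy (adjusted p = 0.204).

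Irf7, the factor that amplifies interferon alpha production and is itself an interferon-induced gene, was the only member called at the lower doses. Its control levels were 8.80, 8.65, 8.26, 8.45 and 8.90, its 0.5 Gy levels 8.15, 7.80, 8.22 and 7.83, its 1.0 Gy levels 8.24, 8.15, 7.80 and 8.24, and its 3.0 Gy levels 8.12, 8.76, 8.06 and 8.49. All 8 mice at 0.5 and 1.0 Gy lay below the lowest control, which held for 4.54% of all tested genes at 0.5 Gy and 6.38% at 1.0 Gy, whereas at 3.0 Gy replicates 2 and 4 lay within the control range. Irf7 was 1.53-fold lower at 0.5 Gy (log2 change -0.61 ± 0.16, adjusted p = 0.0186) and 1.42-fold lower at 1.0 Gy (-0.51 ± 0.16, adjusted p = 0.0367). At 3.0 Gy the change was -0.26 ± 0.16 (adjusted p = 0.192), and the difference between 3.0 and 0.5 Gy, 0.36 ± 0.17, did not pass either (adjusted p = 0.114). The call at 0.5 Gy was lost without replicate 2 (adjusted p = 0.053) or 4 (0.0704) of that dose. The call at 1.0 Gy was lost without control replicate 1, 2 or 5 or without any 1 mouse of that dose, at adjusted p from 0.0505 to 0.113. With the 18S level in the model the changes were -0.33 (adjusted p = 0.723) and -0.14 (adjusted p = 0.927).

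Irf5, which works downstream of MyD88 in inflammatory cytokine induction, changed least among the called members. It read 4.91, 5.03, 5.08, 4.84 and 5.26 in controls, 5.38, 5.12, 5.17 and 5.19 at 0.5 Gy, 5.21, 5.19, 5.19 and 5.09 at 1.0 Gy, and 5.28, 5.40, 5.42 and 5.07 at 3.0 Gy. All groups overlapped, with 3 of 4 mice at 3.0 Gy above the highest control. The change of 0.27 ± 0.11 at 3.0 Gy, 1.20-fold higher, passed narrowly (adjusted p = 0.0437). It was lost without control replicate 1, 2, 3 or 4, 3.0 Gy replicate 1, 2 or 3, 0.5 Gy replicate 3 or 4, or 1.0 Gy replicate 2 or 4 (adjusted p from 0.0504 to 0.123). The change has the opposite sign in the gene's other probe set, described below, so no direction for the Irf5 transcript follows from these arrays.

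Irf9, the DNA-binding subunit of ISGF3, had its highest mean at 1.0 Gy, as did Irf1 and Irf2, and came closest of the 3 to a call there. Its levels were 6.82, 6.35, 6.39, 6.67 and 6.38 in controls, 6.24, 6.99, 6.72 and 6.66 at 0.5 Gy, 7.19, 7.10, 6.64 and 7.25 at 1.0 Gy, and 6.64, 6.41, 5.80 and 6.48 at 3.0 Gy. At 1.0 Gy 3 of 4 mice lay above the highest control, and replicate 3 lay among the controls. The change at 1.0 Gy, 0.52 ± 0.18, fell just short of the threshold (adjusted p = 0.0504), and the changes at 0.5 Gy (0.13 ± 0.18, adjusted p = 0.757) and 3.0 Gy (-0.19 ± 0.18, adjusted p = 0.388) were not called. Between the doses, Irf9 was 1.64-fold lower at 3.0 Gy than at 1.0 Gy (-0.71 ± 0.19, adjusted p = 0.00705). Irf9 at 1.0 Gy passed without replicate 3 of that dose (adjusted p = 0.0172), and also without control replicate 1, 0.5 Gy replicate 1 or 2, or 3.0 Gy replicate 1 or 3 (adjusted p from 0.0251 to 0.049). Without 1.0 Gy replicate 4 its adjusted p was 0.151, the highest with any 1 array left out, and with the 18S level in the model its change was 0.05 (adjusted p = 0.979).

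Of Irf2 and Irf1, the pair that shares target sites, only Irf2 was called at 3.0 Gy. Irf2 read 5.64, 4.98, 4.64, 5.17 and 4.74 in controls, 4.50, 5.56, 4.81 and 5.01 at 0.5 Gy, 5.33, 5.50, 4.96 and 5.32 at 1.0 Gy, and 4.45, 4.27, 4.31 and 4.03 at 3.0 Gy. The 3.0 Gy mice lay below every other mouse, while the lower doses spread over the control range. Irf2 was 1.70-fold lower at 3.0 Gy than in controls (log2 change -0.77 ± 0.20, adjusted p = 0.00413), with changes of -0.06 at 0.5 Gy (adjusted p = 0.919) and 0.24 at 1.0 Gy (adjusted p = 0.472) that were not called. Irf1 read 7.93, 7.64, 7.74, 7.95 and 7.47 in controls, 7.57, 8.02, 7.53 and 7.55 at 0.5 Gy, 8.06, 7.82, 7.54 and 7.82 at 1.0 Gy, and 7.73, 7.56, 7.16 and 7.58 at 3.0 Gy. Only replicate 3 at 3.0 Gy lay outside the control range on the low side. The changes of Irf1 were -0.08 at 0.5 Gy (adjusted p = 0.831), 0.06 at 1.0 Gy (adjusted p = 0.821) and -0.24 at 3.0 Gy (95% interval -0.54 to 0.07, adjusted p = 0.177). The difference between the changes of Irf1 and Irf2 was not tested.

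**Figure D3:**
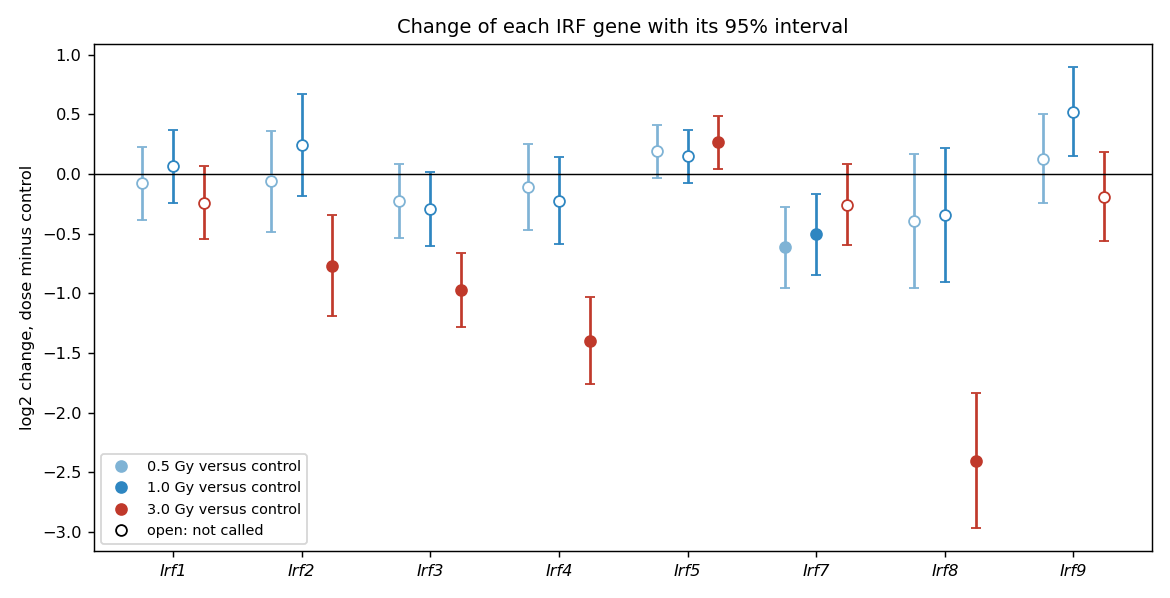
Log2 change from control of each member at 0.5, 1.0 and 3.0 Gy (vertical axis) with its 95% interval from the model over 17 arrays, filled where the adjusted p was under 0.05. Irf8 reached -2.40 and Irf4 -1.40 at 3.0 Gy, and Irf7 alone is filled at 0.5 and 1.0 Gy.

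Between the doses, the called differences set 3.0 Gy apart from both lower doses. At 3.0 against 1.0 Gy 5 of 8 members were lower (Irf2, Irf3, Irf4, Irf8 and Irf9), where 38.6% of all genes were called and 22.7% were called lower, and at 3.0 against 0.5 Gy 4 of 8 were lower (Irf2, Irf3, Irf4 and Irf8), where 33.8% were called and 20.9% were called lower. Irf8 was 4.16-fold lower at 3.0 than at 1.0 Gy (-2.06 ± 0.28, adjusted p = 4.26e-05), Irf4 2.26-fold (-1.17 ± 0.18, adjusted p = 0.000112), Irf2 2.01-fold (-1.01 ± 0.21, adjusted p = 0.00146) and Irf3 1.60-fold (-0.68 ± 0.16, adjusted p = 0.00256). For these 4 genes every 3.0 Gy mouse lay below every 1.0 Gy mouse, as in 18.3% of all genes, and below every 0.5 Gy mouse, as in 20.1%. Against 0.5 Gy the changes at 3.0 Gy were -2.01 for Irf8, -1.29 for Irf4, -0.75 for Irf3 and -0.71 for Irf2 (adjusted p from 4.5e-05 to 0.016), and that of Irf2 lost its call without 0.5 Gy replicate 2 (adjusted p = 0.0749) or 3.0 Gy replicate 4 (adjusted p = 0.0516). The call of Irf3 against 1.0 Gy was lost with the mean of all its probe sets (-0.24, adjusted p = 0.0509). It was also absent in 1416898_a_at, another Irf3 probe set (-0.30, adjusted p = 0.14, against 1.0 Gy and -0.38, adjusted p = 0.0755, against 0.5 Gy), and in 1435271_at (0.07, adjusted p = 0.634, and -0.02, adjusted p = 0.889). With the 18S level in the model the changes at 3.0 against 1.0 Gy were -1.13 for Irf8, -0.75 for Irf4, -0.70 for Irf3, -0.39 for Irf2 and -0.27 for Irf9, and against 0.5 Gy -1.29 for Irf8, -0.96 for Irf4, -0.76 for Irf3 and -0.23 for Irf2, none of them called. No member was called between 1.0 and 0.5 Gy by limma, with 0 of 8 at an unadjusted p under 0.05, where 0.0158% of all genes were called. For all 8 members the 95% interval of that difference lay within 2-fold in either direction, and the widest, that of Irf8, ran from -0.54 to 0.64.

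Several members had more than 1 probe set, 14 in all, of which 12 passed the filter. For Irf8 the other probe set, 1448452_at, averaged 4.97 ± 0.36 at 3.0 Gy and 6.27 ± 0.23 in controls, a change of -1.30 ± 0.15 (adjusted p = 1.38e-06), which has the same direction and is smaller. Irf3 had 3 that passed: 1416898_a_at was lower at 3.0 Gy (-0.75 ± 0.15, adjusted p = 0.000447), and so was the chosen 1426111_x_at, whereas 1435271_at read 5.08 ± 0.06 at 3.0 Gy and 4.92 ± 0.12 in controls (0.16 ± 0.11, adjusted p = 0.24). At 1.0 Gy 1416898_a_at was lower as well (-0.45 ± 0.15, adjusted p = 0.0466). For Irf5, 1460231_at gave -0.37 ± 0.15 at 3.0 Gy (adjusted p = 0.0534) and -0.51 ± 0.15 at 1.0 Gy (adjusted p = 0.0256), against 0.27 and 0.15 in the chosen 1449678_at. Probe sets whose name ends in x_at or s_at, the type chosen for Irf3 and Irf2, may also read related transcripts. The second probe set of Irf4, 1421174_at, read 2.57 ± 0.17 at 3.0 Gy and 2.40 ± 0.10 in controls and did not pass the filter, nor did 1438721_a_at of Irf3. With all probe sets of a gene averaged, dim ones included, the change at 3.0 Gy was -0.61 for Irf4 (adjusted p = 7.57e-05) and -0.40 for Irf3 (adjusted p = 0.00117). Irf1, Irf2, Irf7 and Irf9 each had 1.

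**Figure D4:**
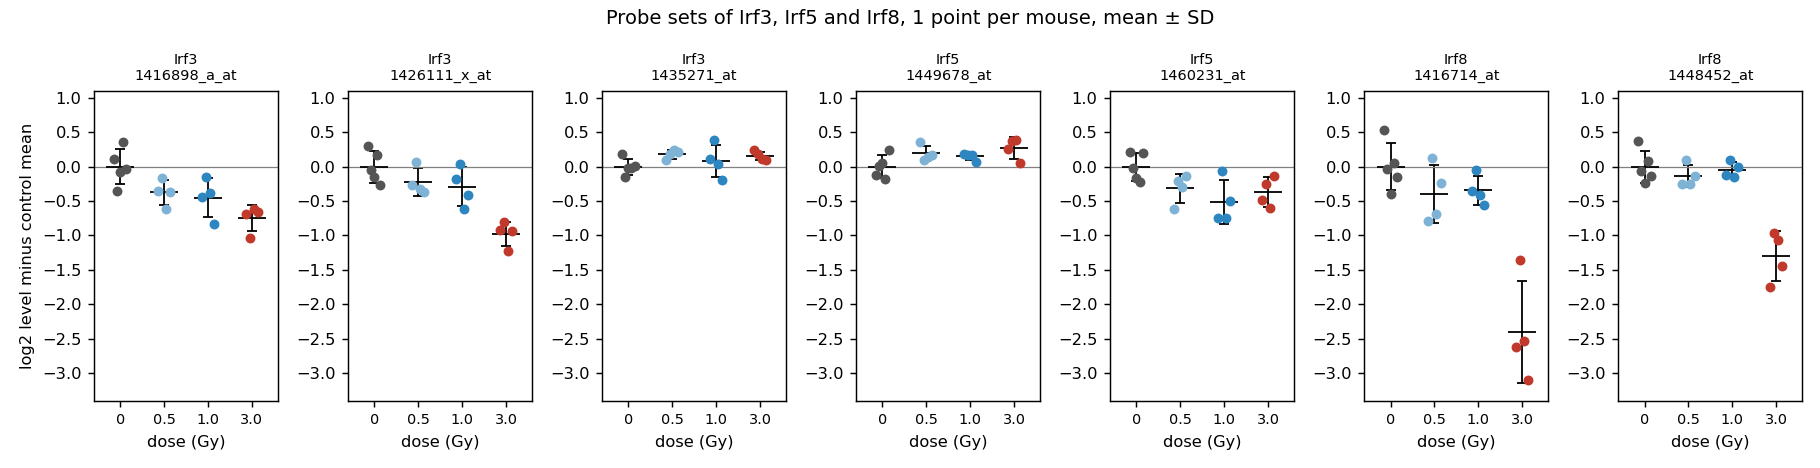
Log2 RMA level minus the control mean (vertical axis, the same in all panels) against X-ray dose in Gy for the probe sets of Irf3, Irf5 and Irf8 that passed the filter, 1 point per mouse with group mean and SD. Both Irf8 probe sets fall at 3.0 Gy, while 1435271_at of Irf3 does not fall with the other 2 and the 2 Irf5 probe sets move in opposite directions.

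Of 18 tested sensors, adaptors and kinases upstream of Irf3, Irf5 and Irf7, 7 were lower at 3.0 Gy and 3 were higher (Tlr4, Mavs and Ifih1), with a median of -0.21. At that dose 29.2% of all genes were lower and 20.0% higher, so both counts lie not far from those shares. Slc15a4, the lysosomal transporter needed for Toll-like receptor 7 and 9 signalling to Irf5 and Irf7, changed by -1.90 ± 0.18 (adjusted p = 1.6e-07), Ikbkb, a kinase of the NF-kB pathway that also phosphorylates Irf5, by -1.77 ± 0.23 (adjusted p = 3.19e-06), Tbk1, the kinase of Irf3, by -1.52 ± 0.20 (adjusted p = 6.27e-06) and Sting1, the adaptor of DNA sensing, by -1.23 ± 0.15 (adjusted p = 2.37e-06). At 0.5 Gy only Mavs, the adaptor of RNA sensing, was higher (0.45), and at 1.0 Gy Mavs (0.51), Ddx58 (0.94) and Ifih1 (0.77) were higher and no gene of the list was lower. Ddx58 and Ifih1 are also in the list of interferon-induced genes and are counted there too. Of all genes 5.24% were higher at 0.5 Gy and 8.80% at 1.0 Gy. Mavs, Ddx58, Ifih1 and Tlr4 were named after their values were seen.

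The interferon genes themselves showed no call against control. Of 18 genes in the list 7 passed the filter, and by limma none was called at any dose, with 0, 1 and 0 genes at an unadjusted p under 0.05 at 0.5, 1.0 and 3.0 Gy. Ifnb1, the direct target of Irf3, differed from control by -0.15 at 0.5 Gy, -0.30 at 1.0 Gy and 0.25 ± 0.13 at 3.0 Gy (adjusted p = 0.121). Ifna2 differed by 0.22 ± 0.11 (adjusted p = 0.116), Ifna9 by 0.16 ± 0.10 (adjusted p = 0.215) and Ifna1 by 0.09 ± 0.13 (adjusted p = 0.554) at 3.0 Gy. Between doses, Ifnb1 was higher at 3.0 Gy than at 1.0 Gy (0.56 ± 0.14, adjusted p = 0.00498) and than at 0.5 Gy (0.40 ± 0.14, adjusted p = 0.0324). Its signal was dim. Ifnb1 averaged 3.70 in the 3.0 Gy mice, its only group mean above the array medians, which ran from 3.47 to 3.57. Every other group averaged 3.45 or less, so a rise of interferon beta does not follow from these calls. Ifna9 was higher at 3.0 than at 1.0 Gy (0.29 ± 0.11, adjusted p = 0.0449). With Ifnb1 counted, 2 of 7 interferon genes were higher at 3.0 than at 1.0 Gy, beside 2016 of all 12696 genes. Against 0.5 Gy it was 1 of 7, beside 1633 of 12696, a share near that of all genes. With 1 array left out, 1 to 3 interferon genes were higher than at 1.0 Gy, the count being 1 without control replicate 5, 0.5 Gy replicate 1, 3 or 4, 1.0 Gy replicate 1, 2 or 4, or 3.0 Gy replicate 1, 2 or 4. Against 0.5 Gy the count was 0 without 0.5 Gy replicate 1, 2 or 4 or 3.0 Gy replicate 1 or 4, and with the 18S level in the model it was 0 against both doses. With the filter at the 75th percentile the count was also 0 against both doses.

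Interferon receptors and the JAK-STAT genes moved in both directions. Of 17 genes, 4 were higher and 2 lower at 0.5 Gy, 4 and 2 at 1.0 Gy, and 3 and 8 at 3.0 Gy. Of all genes 5.24%, 8.80% and 20.0% were higher at these doses, and 635 of 12696, 8.49% and 29.2% were lower. Jak2, the kinase of the interferon gamma receptor, was higher at every dose (0.75, 0.96 and 0.82 on the log2 scale), as were the phosphatase Ptpn1 (0.73, 1.02 and 0.89) and Usp18, an interferon-induced brake on the type I receptor that is also in the list of interferon-induced genes (0.85, 1.94 and 1.92), and Jak1 was higher at 0.5 Gy (0.89) and 1.0 Gy (0.91). The receptor subunits Ifngr2 (-0.61, -0.79 and -0.87) and Ifnar2 (-0.41, -0.41 and -0.32) were lower at every dose, and Ptpn2, a phosphatase of JAK-STAT signalling, was lower at 3.0 Gy (-1.53 ± 0.18, adjusted p = 1.44e-06). Jak1, Ifngr2 and Ifnar2 were named after their values were seen.

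Interferon-induced genes of the ISGF3 type, the class that Irf9 serves and to which Irf7 itself belongs, were called higher at each dose in part. Of 31 tested genes 7 were higher at 0.5 Gy, 22 at 1.0 Gy and 16 at 3.0 Gy, where 5.24%, 8.80% and 20.0% of all genes were higher, none was lower at 0.5 or 1.0 Gy, and 4 were lower at 3.0 Gy (Rsad2, Samd9l, Tor3a and Trim25). Their median change was 0.26, 0.89 and 0.38. Ifit3, an antiviral effector, rose by 1.39 ± 0.22 at 0.5 Gy, 2.64 ± 0.22 at 1.0 Gy and 3.17 ± 0.22 at 3.0 Gy (adjusted p at most 3e-04), and Ifit1, Ifit2 and Oasl1 rose at all doses as well, by 2.05, 1.83 and 2.18 at 3.0 Gy. The mean level of the list was 5.90 to 6.32 in controls, 6.36 to 6.54 at 0.5 Gy, 6.54 to 7.32 at 1.0 Gy and 6.45 to 7.002 at 3.0 Gy, so every irradiated mouse lay above every control. Replicate 3 of the 1.0 Gy group had the lowest list level of its dose and also the lowest Irf1, Irf2, Irf3, Irf7 and Irf9. Replicate 3 of the 3.0 Gy group had the lowest list level and the lowest Irf1, Irf3, Irf4, Irf7 and Irf9 of its dose. Both arrays were also lowest of their dose in the T cell, monocyte, neutrophil, conventional dendritic cell, JAK-STAT, sensor and partner lists. Neither was lowest in the NK cell, platelet or red cell lists. These low values are therefore not particular to interferon-induced genes, and a link between them and the Irf levels was not tested. Without replicate 3 of the 0.5 Gy group 4 genes of the list were called at that dose. With the 18S level in the model, 1 gene of the list was called at 0.5 Gy and 6 at 1.0 Gy.

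Interferon gamma and Irf1 target genes divided at 3.0 Gy, with 5 of 21 higher and 10 lower, where 20.0% of all genes were higher and 29.2% lower. The higher ones were Igtp (1.77 ± 0.17, adjusted p = 1.47e-07), Irgm2 and Gbp2, guanosine triphosphatases that defend cells against intracellular microbes, Cd274, the ligand PD-L1 (1.15 ± 0.16, adjusted p = 1.13e-05), and Il15, a cytokine of NK cells (1.61 ± 0.24, adjusted p = 1.82e-05). Among the lower ones was Psmb8, a subunit of the immunoproteasome (-1.30 ± 0.19, adjusted p = 1.79e-05). Without control replicate 1, or without 3.0 Gy replicate 3, 6 were lower. At 1.0 Gy 9 were higher and none was lower, or 2 higher with the 18S level in the model, and at 0.5 Gy Igtp was higher (0.99) and Psmb9, another immunoproteasome subunit, was lower (-0.55). Of all genes 8.80% were higher at 1.0 Gy and 5.24% at 0.5 Gy. Irgm2, Gbp2 and Psmb9 were named after their values were seen.

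Partners and regulators of the family fell at 3.0 Gy in 10 of 19 cases, and Batf2 (0.34) and Jun (0.37) were higher, with a median of -0.55. Of all genes 29.2% were lower and 20.0% higher at that dose. Spib, the ETS partner of Irf4 and Irf8 in B cells and plasmacytoid dendritic cells, changed by -3.28 ± 0.41 (adjusted p = 2.65e-06), Ets1, a lymphoid ETS factor, by -3.06 ± 0.28 (adjusted p = 7.93e-08), and the lymphoid zinc finger factors Ikzf1 by -1.87 ± 0.22 (adjusted p = 1.68e-06) and Ikzf3 by -1.78 ± 0.28 (adjusted p = 3.43e-05). At 0.5 and 1.0 Gy only Cbl, an E3 ubiquitin ligase, was called, higher by 0.61 and 0.74. Cbl, Batf2 and Jun were named after their values were seen.

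Markers of the remaining blood cells differed by cell type. At 3.0 Gy 9 of 16 monocyte markers were lower and 2 were higher (F13a1, which platelets also carry, and Fcgr4), 10 of 14 neutrophil markers were higher and none lower, and 2 of 11 NK cell markers were lower (Klrd1 and Nkg7), a share under the 29.2% of all genes. All 17 platelet markers were higher at every dose, with medians of 1.34, 1.59 and 1.89, and 9 of 15 red cell markers were lower at 3.0 Gy and 2 higher (Epor and Klf1). The monocyte list level was 6.43 to 6.85 in controls, 6.21 to 6.62 at 0.5 Gy, 6.27 to 6.96 at 1.0 Gy and 6.19 to 6.58 at 3.0 Gy, so its groups overlapped. The platelet list level was 8.62 to 9.21 in controls, 10.12 to 10.35 at 0.5 Gy, 10.46 to 10.77 at 1.0 Gy and 10.30 to 11.10 at 3.0 Gy, without overlap between irradiated mice and controls. At the lower doses, where Irf7 was lower, Cd79a alone of 17 tested B cell markers was lower at each dose. Of 16 T cell markers 2 (Cd3d and Cd3g) were lower at 0.5 Gy and 4 at 1.0 Gy, with Cd8b1 and Cd27 added. In the plasmacytoid dendritic cell list none was called at 0.5 Gy, while Tcf4 and Bst2 were higher at 1.0 Gy. For comparison, 635 of all 12696 genes were lower at 0.5 Gy and 8.49% at 1.0 Gy, and 5.24% and 8.80% were higher. The single B cell call at each dose lies near those shares. Of the 16 monocyte markers Treml4 (-1.12), Adgre4 (-1.04) and Clec4a3 (-0.85) were lower at 0.5 Gy and F13a1 (1.53) was higher, and at 1.0 Gy Treml4 (-0.65) was lower while F13a1 (1.72) and Ms4a6d (0.89) were higher. Of the 15 red cell markers 4 were lower at 0.5 Gy (Car2, Trim10, Epb42 and Rhd) and 5 at 1.0 Gy, with Slc4a1 added. The red cell list level was 8.07 to 8.80 in controls, 7.97 to 8.21 at 0.5 Gy, 7.41 to 7.93 at 1.0 Gy and 7.26 to 7.62 at 3.0 Gy. The plasmacytoid list level was 5.33 to 5.48 in controls, 5.23 to 5.36 at 0.5 Gy, 5.36 to 5.51 at 1.0 Gy and 4.61 to 5.09 at 3.0 Gy. The part of these cell types in the Irf values was not tested. Markers called at the lower doses were named after their values were seen.

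The genes most like each member were found as the 4 with the smallest root mean square difference over the 17 arrays, after each gene had its own control mean subtracted. They were Gpd1l (0.198 log2 units), Lpxn, Map4k1 and Rbbp7 for Irf8, whose changes at 3.0 Gy ranged from -2.40 to -2.11. For Irf4 they were Ccdc50 (0.137), Mark3, AU020206 and Lbh, for Irf3 Stub1 (0.101), Snx8, Il16 and Prpf18, and for Irf2 Smarca5 (0.157), Zc3h4, Ppp4r1 and Osbpl9. Irf7 was matched by Rfxank (0.204), Fam220a, Ccs and Psmd4, which changed by -0.46 to -0.39 at 0.5 Gy and by -0.59 to -0.47 at 1.0 Gy. Irf9 was matched by Zswim6 (0.150), Otud3, Kpna4 and Fam91a1, which changed by 0.37 to 0.47 at 1.0 Gy. Irf1 (Ugp2, 0.103, Nosip, Myl12b and Emd) and Irf5 (Tdrd9, 0.0858, Dcun1d3, Lce1i and Zbtb5), which varied little, had near neighbours that varied little too. Because neighbours were chosen on these same values, the likeness of their changes to those of the member follows from the choice and is no separate result.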

How the data were processed

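Transcripts in the blood of 17 mice were read on Affymetrix arrays from 200 ng of total RNA per the labels' protocols. The authors deposited log2 levels of 45101 probe sets, made by RMA with R 3.3.2 per the submitters' processing notes. RMA makes arrays alike in distribution and pulls dim probe sets together, so folds of dim genes are understated. Further settings are not given here, and no batch or scan date was used.

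The platform annotation gave 34945 probe sets 1 gene symbol, for 18193 genes. The brightest on average stood for its gene, and 12696 genes passed the filter. The deposited log2 values were fitted with limma 3.58.1 in R 4.3.3 (4 group means over 17 arrays, lmFit and eBayes, two-sided), with Benjamini-Hochberg adjustment over all genes and a threshold of 0.05. The script was tested on simulated data. Errors are SDs of groups or SEs of the model, and the number of arrays limits the precision.

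The members and the 15 gene lists were chosen with earlier results of these data known, among them the fall of Irf7 at the lower doses and the rise of interferon-induced genes. Named genes were all members, the 4 genes per list with the smallest p at 3.0 Gy, and the 4 nearest profiles per member. Alternatives covered the filter, normalization, probe set rule, model, eBayes, samples fitted and each array left out. Pairs of arrays with the same replicate number had deviations from group means that correlated with a median r of 0.0666 (24 pairs), against -0.0254 for different numbers (84 pairs), so the numbers were not taken to pair mice.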

Additional observations from a re-analysis of the deposited data

Results flagged for a closer look

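In 32 groups of 4 or 5 arrays (8 genes at 4 doses), 2 arrays stood apart from their group by Dixon's test at the 95% level, which chance gives in about 1 of 20 groups. Irf1 in replicate 2 of the 0.5 Gy group read 8.02, with the nearest mouse at 7.57. Irf5 in replicate 4 of the 1.0 Gy group read 5.09, with the nearest at 5.19, in a group whose other mice nearly coincided.

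The 18S control probe sets, which enter no comparison of genes, lay above the controls by 2.17 log2 units at 0.5 Gy and by 2.76 at 1.0 Gy.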

How the results depend on the processing

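The calls of Irf8, Irf4, Irf3 and Irf2 at 3.0 Gy against control held in all 9 planned settings and without any 1 of the 17 arrays. Over the settings the log2 change ran from -2.46 to -1.85 for Irf8, -1.42 to -0.61 for Irf4, -1.04 to -0.40 for Irf3 and -0.84 to -0.70 for Irf2, and the smallest changes of Irf4 and Irf3 came from the mean of all probe sets, dim ones included. At 1.0 Gy against control the count of called members was 2 with the filter at the 75th percentile, 3 with quantile normalization repeated, 2 with the mean of all probe sets, 2 with the probe set of largest variance, 2 with only the groups compared, and 0 with the replicate number as a block (Irf7 -0.44, adjusted p = 0.0883), a block that changed no other count of members. With the 18S level in the fit the count was 0 at 0.5 Gy, 0 at 1.0 Gy, 0 for 3.0 against 1.0 Gy and 0 for 3.0 against 0.5 Gy, with larger standard errors. Irf5 turned to -0.052 at 3.0 Gy with the mean of all probe sets (adjusted p = 0.641) and to -0.51 at 1.0 Gy and -0.37 at 3.0 Gy with the probe set of largest variance, which is the other Irf5 probe set (1460231_at). The Irf3 probe set 1435271_at, tested after seeing the data, gave 0.16 at 3.0 Gy against control and 0.071 against 1.0 Gy. With 1 array left out the count of members ranged from 0 to 1 at 0.5 Gy, 0 to 2 at 1.0 Gy, 4 to 5 at 3.0 Gy, 5 to 5 for 3.0 against 1.0 Gy, 3 to 4 for 3.0 against 0.5 Gy and 0 to 0 for 1.0 against 0.5 Gy. Irf5 at 3.0 Gy lost its call in 13 settings with its sign kept and in each setting that turned its sign, and Irf9 at 1.0 Gy passed in 10, among them quantile normalization repeated (adjusted p = 0.0242). The cause was not tested. The number of mice limits all of these, and RMA values carry no measure of signal over background.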
